A study of Mus musculus with 6 samples.

Results

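Egfl6, Trh, Fxyd6, Sptssb, Elobl and Serpinb1a were among the genes whose transcripts were furthest above their day 3 level on day 7 of reprogramming, with both factor combinations tested. They were chosen on that value, so it is described here without a test. All probe sets whose platform annotation names exactly 1 of these 6 genes were taken: 8 probe sets, for 6 of the 18193 genes on the array. The study used embryonic fibroblasts from B6CBAF1/J mice and induced reprogramming, in which a differentiated cell is driven back toward a pluripotent state. SOX2 and KLF4 were common to all arrays. The combination called O(WT)SK adds wild-type OCT4, and O(5R)SK adds a version of OCT4 labelled 5R, a name the labels do not explain. All cells grew in medium for embryonic stem cells that held serum and LIF, a cytokine that supports pluripotency in mouse cells. RNA was taken on days 3, 5 and 7, with 1 Affymetrix array for each combination and day, so 6 arrays in all and no replicate. The embryo age, the means of delivery and whether the days came from separate cultures are not given in the labels, and cells without the factors were not analysed here. All p-values below therefore reflect differences among 6 single arrays, and this spread may be technical.

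The 6 genes come from different pathways. Egfl6 encodes a secreted matrix protein with EGF-like repeats and an integrin-binding RGD sequence. Trh encodes the precursor of thyrotropin-releasing hormone, a peptide cut out of the precursor, amidated and best known from the hypothalamus, where it governs the thyroid axis. Fxyd6 encodes a small membrane protein of the FXYD family, whose members bind the Na,K-ATPase and tune its transport. Sptssb encodes a small activating subunit of serine palmitoyltransferase, the enzyme that starts sphingolipid synthesis and whose large subunits are SPTLC proteins. Elobl is named for its likeness to elongin B, an adaptor of cullin ubiquitin ligases and of the elongin transcription factor. Serpinb1a encodes an intracellular clade B serpin that inhibits neutrophil elastase, cathepsin G and proteinase 3.

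Since all 6 transcripts were higher on day 7, the promoter sequence of 3 of them is shown for comparison: Egfl6, which had the largest mean rise, Fxyd6, whose log2 step was larger before day 5 in both combinations, and Elobl, whose step was larger after it. RefSeq promoters (GRCm38.p6) were found for 5 of the 6 genes. Each line gives the 250 bases before the transcription start, 5′ to 3′ along the gene, and capitals mark the motifs found.
Egfl6, chrX:166585717-166585966, minus strand: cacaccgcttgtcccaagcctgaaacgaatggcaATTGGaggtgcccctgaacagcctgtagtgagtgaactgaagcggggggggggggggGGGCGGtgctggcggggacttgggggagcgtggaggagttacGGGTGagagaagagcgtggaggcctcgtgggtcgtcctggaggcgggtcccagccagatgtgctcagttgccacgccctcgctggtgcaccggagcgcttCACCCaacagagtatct
Fxyd6, chr9:45369935-45370184, plus strand: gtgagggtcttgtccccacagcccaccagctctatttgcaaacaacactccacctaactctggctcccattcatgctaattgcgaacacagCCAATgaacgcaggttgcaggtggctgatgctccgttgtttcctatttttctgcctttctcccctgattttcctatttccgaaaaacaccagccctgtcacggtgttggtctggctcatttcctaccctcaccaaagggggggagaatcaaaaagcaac
Elobl, chr11:88966932-88967181, minus strand: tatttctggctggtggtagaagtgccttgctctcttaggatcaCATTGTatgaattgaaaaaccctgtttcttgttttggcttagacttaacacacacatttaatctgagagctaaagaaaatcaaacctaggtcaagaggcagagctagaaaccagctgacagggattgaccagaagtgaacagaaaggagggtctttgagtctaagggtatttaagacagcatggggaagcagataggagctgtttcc

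Motifs were searched on both strands as exact letters. For the reprogramming factors these were the octamer of POU proteins such as OCT4, spelled ATGCAAAT, the core of SOX sites, spelled CATTGT, and the element of KLF proteins, spelled CACCC. General promoter elements were the GC box with the letters GGGCGG, the TATA box with the letters TATAAA and the CCAAT box, which is named for its letters. Signal-dependent elements were the AP-1 site, spelled TGANTCA, and the cyclic AMP response element, spelled TGACGTCA. None of the matches in these 5 promoters overlapped another. The Egfl6 promoter held 2 CACCC elements, 1 GC box and 1 CCAAT box, that of Fxyd6 a CCAAT box alone, and that of Elobl a SOX core alone, 207 to 202 bases before the start. The promoters of Trh and Sptssb each held a GC box alone, 117 to 112 and 46 to 41 bases before the start. The octamer, the TATA box, the AP-1 site and the cyclic AMP response element had no exact match in these 5 windows. Of 32851 RefSeq promoters of the same length, 1.6% held the octamer, 10.7% the SOX core, 52% a CACCC element, 32.7% a GC box, 12.4% the TATA box, 33.8% CCAAT, 6.75% the AP-1 site and 1.55% the cyclic AMP response element. GC content was 64.8% for Egfl6, 68.8% for Trh, 53.2% for Sptssb, 50.4% for Fxyd6 and 42.4% for Elobl, against a median of 52.4% over all promoters. These matches describe letters only.

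Pairs of arrays correlated with r from 0.974 to 0.982 across probe sets, which are not independent replicates, and 2 of the 6 arrays stood somewhat apart. For O(5R)SK on day 3, the spiked-in dap transcript gave a 3′ to 5′ ratio of 3.09 (2.26 to 2.76 elsewhere) and thr gave 3.78 (2.05 to 2.56 elsewhere). The same ratio for Gapdh, a transcript of the cells, did not stand apart there, at 0.797 (0.768 to 0.803 elsewhere). For O(5R)SK on day 7, the brightest probe set reached 34285, while it reached 40353 to 47606 elsewhere. Its median was 68.0 (59.0 to 61.4 elsewhere), and the 3′ control of Gapdh read 17665 (21995 to 23810 elsewhere). The O(WT)SK values given below for each gene rest on neither array. All 10 fibroblast markers were tested: 0 rose and 2 fell, Thy1 (log2 -0.71, limma adjusted p = 0.024) and Fap (-0.48, adjusted p = 0.0499). Their summed intensity was 99042, 104567 and 111401 on days 3, 5 and 7 for O(WT)SK, and 94038, 92082 and 83126 for O(5R)SK, so it was higher on day 7 in the first and lower in the second. Vim stood at 31366 or more and Col1a2 at 20424 or more, with Pdgfra, a receptor gene of fibroblasts, at 69.1 to 103, close to the floor described next. Between day 7 and day 3, 6.52% of all tested genes were called higher and 3.67% lower in limma. Macrophage markers moved with the day: 6 of the 9 tested fell and their sum went from 8719 on day 3 to 3529 on day 7 with O(WT)SK and from 8119 to 2998 with O(5R)SK. Of 6 tested epithelial markers 2 rose, Cdh1 and Krt8, and the sum of 10 went from 605 to 962 and from 575 to 1622. Of 4 tested pluripotency markers 2 rose, Utf1 and Fbxo15, while Nanog stayed between 4.06 and 16.7 and Zfp42 between 2.15 and 15.5. The sum of 10 pluripotency markers went from 145 on day 3 to 319 on day 7 with O(WT)SK and from 170 to 640 with O(5R)SK. The part of these markers in the rise of the 6 genes was not tested, and in bulk RNA more cells with a transcript and more transcript per cell cannot be told apart.

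Intensities are on a linear scale, and levels of different probe sets cannot be compared with each other. As a guide to the floor, 16 genes of other tissues that are likely off in fibroblasts had medians of 6.30 to 18.1 over the 6 arrays, and the brightest of them, Apoa2, read 102 to 145. Genes were tested where their mean passed the 40th percentile of probe sets, an intensity of 33.4, and all 6 genes passed. Log2 values are of the intensity plus 16, and folds on that scale understate the change of dim probe sets.

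The O(WT)SK arrays of days 3, 5 and 7 gave Egfl6 intensities of 44.5, 140 and 319, and the O(5R)SK arrays 15.2, 206 and 768. The combinations overlapped in range, with O(5R)SK holding both the lowest and the highest value. Its O(5R)SK day 3 value is the only one of its 6 under the filter intensity and lies among the genes taken as off, so a plain ratio against it has no meaning. The log2 rise was 2.47 with O(WT)SK (5.54-fold) and 4.65 with O(5R)SK, a mean of 3.56 (SD 1.54 over the 2 combinations), the 1st of 12629 tested genes. This place rested on the pseudocount and on the O(5R)SK value of day 3. The mean was 4.19 with a pseudocount of 1 and 2.61 with 64. With the O(5R)SK day 3 array left out, the rise fitted to the other arrays was 2.65. Without the O(WT)SK day 3 array it was 4.47. Egfl6 exceeded the brightest off gene on 4 arrays, those of days 5 and 7.

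Trh read 54.8, 164 and 383 on the O(WT)SK arrays and 58.4, 130 and 844 on those of O(5R)SK. Both combinations began at a like level, and they parted on day 7. Its log2 rise was 2.49 and 3.53, 5.63-fold and 11.6-fold, with a mean of 3.01 (SD 0.73). Both day 3 values and the O(5R)SK day 5 value lay under the brightest off gene, so its folds and its early step are against values not clearly above the floor. No other day stood as far apart between the combinations as day 7, where O(5R)SK was higher by 1.11 on the log2 scale.

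Fxyd6 had intensities of 74.0, 368 and 872 on the O(WT)SK arrays and 91.6, 319 and 679 on those of O(5R)SK. The log2 rise was 3.30 (9.86-fold) and 2.69 (6.47-fold), with a mean of 3.00 (SD 0.43). Here O(WT)SK had the larger rise, the opposite of Egfl6 and Trh. Only the day 3 values lay under the brightest off gene.

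Sptssb was measured by a pair of probe sets. The brighter read 248, 800 and 1806 on the O(WT)SK arrays and 318, 937 and 2152 on those of O(5R)SK, above the brightest off gene on all 6 arrays. Its log2 rise was 2.79 (6.91-fold) and 2.70 (6.50-fold), with a mean of 2.75 and an SD of 0.063, the smallest SD of the 6 genes. The other probe set gave the same direction and a smaller size: it read 88.2, 140 and 293, and 97.9, 119 and 386, a mean log2 rise of 1.69 (SD 0.18).

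Elobl read 176, 345 and 1248 on the O(WT)SK arrays and 132, 246 and 1075 on those of O(5R)SK, all above the brightest off gene. The log2 rise was 2.72 (6.59-fold) and 2.89 (7.40-fold), with a mean of 2.80 (SD 0.12). Elobl has 1 probe set, so no other bears on it. The same is true of Egfl6, Trh and Fxyd6.

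Serpinb1a read 117, 433 and 1220 on the O(WT)SK arrays and 88.5, 311 and 750 on those of O(5R)SK. The log2 rise was 3.21 (9.28-fold) and 2.87 (7.33-fold), with a mean of 3.04 (SD 0.24). The O(5R)SK day 3 value of 88.5 lay under the brightest off gene, at 112 on that array. Its other probe set, whose suffix marks probes shared by several transcripts, read 27.5, 90.8 and 128, and 46.4, 52.6 and 169, a mean log2 rise of 1.65 (SD 0.11). Across the 6 arrays the log2 values of both probe sets correlated with r = 0.892, and those of Sptssb with r = 0.919, as a description over arrays that share the day course.

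**Figure D1:**
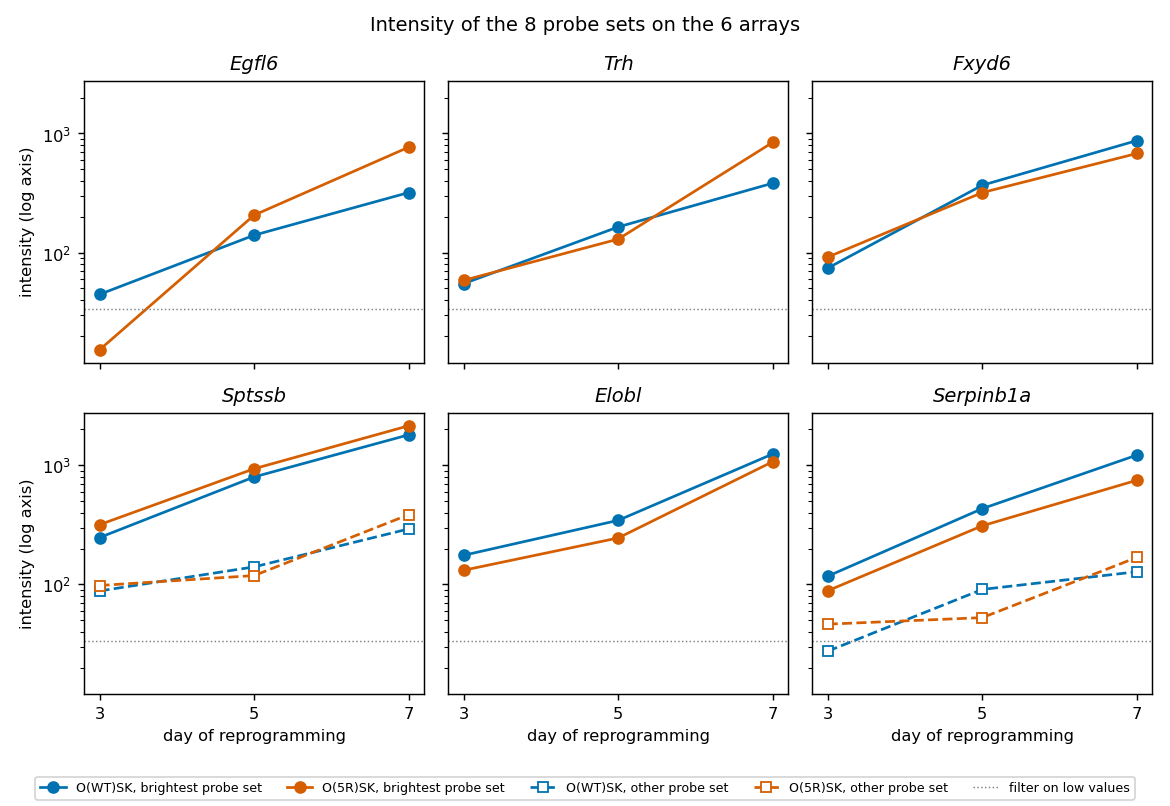
Intensity on a log axis against the day of reprogramming for the 8 probe sets of the 6 genes, with O(WT)SK in blue and O(5R)SK in orange, 1 array per point, and the filter intensity of 33.4 as a dotted line. All 8 probe sets were higher on day 7 than on day 3 in both combinations, the other probe sets of Sptssb and Serpinb1a (open squares) by less than the brightest ones, and levels of different probe sets are not comparable.

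By mean rise the genes stood at places 1 (Egfl6), 5 (Serpinb1a), 6 (Trh), 7 (Fxyd6), 8 (Elobl) and 10 (Sptssb) of 12629. The genes just outside Sptssb with its 2.75 were Fmod and Rnase1 (2.74 each) and Mpzl2 (2.71). Places 2, 3, 4 and 9 belonged to Ms4a4d, Akr1c14, Lbp and Scara5. Of all tested genes, 10.2% were called between day 7 and day 3 in limma, 6.52% as higher and 3.67% as lower, and 2.01% were at least 2-fold higher in both combinations. Higher calls made up 64% of the calls, and 49.4% with the arrays shifted to a common median. All 6 genes were at least 2-fold higher in both, as their choice requires. With a pseudocount of 64 the 6 mean rises drew together, from 2.40 for Trh to 2.62 for Serpinb1a, so their order at 16 is not a ranking of size.

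**Figure D2:**
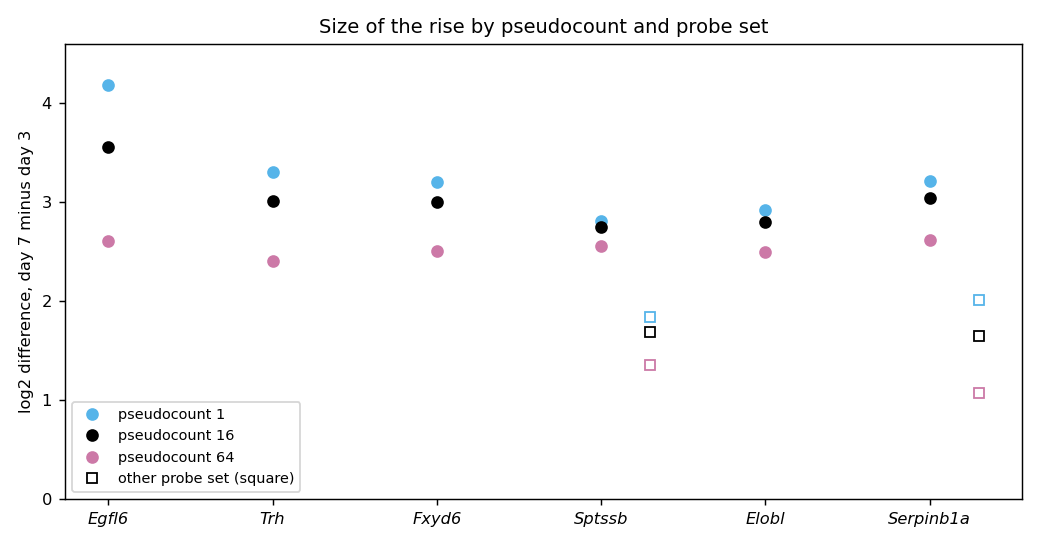
Mean log2 rise from day 3 to day 7 over both combinations, for each gene under pseudocounts of 1, 16 and 64, with circles for the brightest and squares for the other probe set. Egfl6 moved most, from 4.19 to 2.61, Sptssb least among the brightest probe sets, from 2.81 to 2.56, and the squares lay below the circles.

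The timing of the rise is the question that day 5 can answer, since the genes were chosen on days 3 and 7 only. All 6 genes had their day 5 value between those of days 3 and 7 in both combinations. This order was seen in 14.9% of all tested genes and in 92.9% of the 254 genes at least 2-fold up in both combinations, so it is common among genes with a rise of this size. Egfl6, Fxyd6, Sptssb and Serpinb1a had the larger log2 step before day 5 in both combinations. How common a larger early step is among genes with such a rise was not counted, so this is a description. Both day 3 values of Egfl6 and of Fxyd6 lay under the brightest off gene, as did the O(5R)SK day 3 value of Serpinb1a. The early steps from these values thus start near the floor. For Fxyd6 the steps were 2.09 and then 1.21 with O(WT)SK and 1.64 and then 1.05 with O(5R)SK. For Elobl they were 0.91 and then 1.81 with O(WT)SK, and 0.83 and then 2.06 with O(5R)SK, so most of its rise came after day 5 in both. Trh differed between the combinations, with steps of 1.35 and 1.15 with O(WT)SK and of 0.97 and 2.56 with O(5R)SK. On the linear scale the gain in intensity was larger after day 5 for all 6 genes in both combinations, for example 95.4 and then 179 for Egfl6 with O(WT)SK and 619 and then 1215 for Sptssb with O(5R)SK, so the early weight of 4 genes holds on the log scale only.

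The test of timing set day 5 against the mean of days 3 and 7 over both combinations, a contrast uncorrelated with the rise. Elobl lay below the midpoint by the most (-0.53 on the log2 scale, SE 0.096, 95% interval -0.78 to -0.28, unadjusted p = 0.00341), and it missed the threshold over all genes in limma (adjusted p = 0.641). Fxyd6 lay above it (0.37, 95% interval -0.032 to 0.77), as did Egfl6 (0.32, -0.88 to 1.52), Sptssb (0.20, -0.023 to 0.42) and Serpinb1a (0.18, -0.11 to 0.46), while Trh lay below (-0.35, -1.16 to 0.46). Their limma adjusted p-values ran up to 0.975. The height above the midpoint depended on the pseudocount. Between pseudocounts of 1 and 64 it went from 0.56 to 0.04 for Egfl6 and from 0.44 to 0.22 for Fxyd6. For Sptssb it went from 0.22 to 0.15 and for Serpinb1a from 0.23 to 0.07. Called were 0 of the 6 genes and 0% of the 12629 genes tested; 1 of the 6 and 848 of all had an unadjusted p under 0.05, and a trended, robust prior in limma called 5 genes, none of them among the 6. Elobl kept its sign under all 14 alternatives (-0.62 to -0.45). Among these, the filters, the trended prior and, with its 1 probe set, the mean of probe sets could not change this value. The other probe set of Sptssb had its larger log2 step after day 5 in both combinations, and that of Serpinb1a with O(5R)SK, where the early share of its rise was 8.79% against 75.1% with O(WT)SK. That Serpinb1a probe set exceeded the brightest off gene on 2 arrays only and lay under the filter on the O(WT)SK day 3 array, so these shares rest in part on values near the floor. The early weight of Sptssb and Serpinb1a was not seen by both probe sets.

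**Figure D3:**
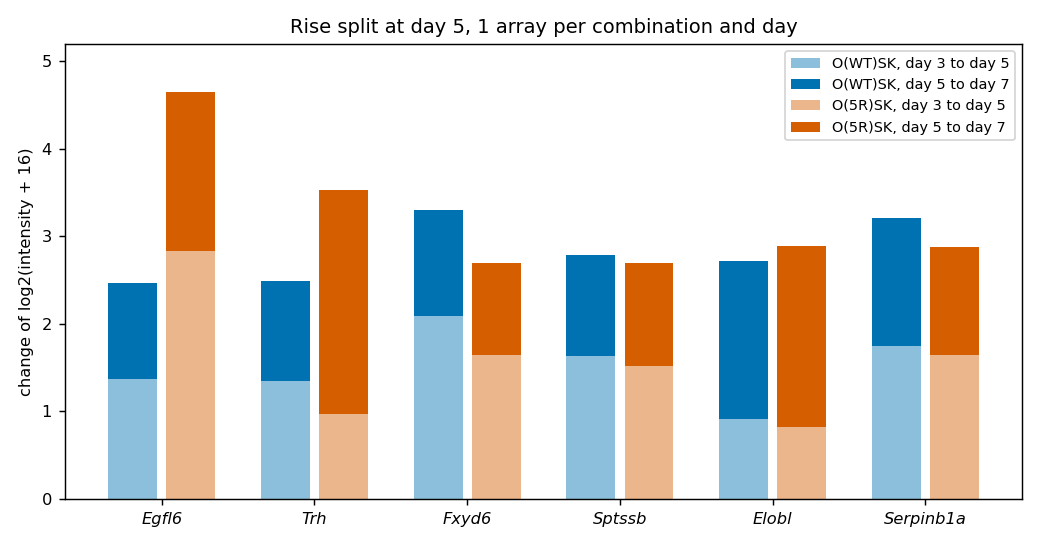
Change of log2(intensity + 16) from day 3 to day 5 (pale) and from day 5 to day 7 (dark), stacked, for each gene and combination, 1 array per day and combination, with no error bars for lack of replicates. The dark part is the larger for Elobl in both combinations and for Trh with O(5R)SK, where it is 2.56 of 3.53.

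Setting the combinations against each other on matched days asks whether the OCT4 version bears on these transcripts, and the choice of the genes did not use it. The 3 days stand in for replicates here. The SEs and intervals thus rest on the spread over days and do not measure variation between cultures. Sptssb was higher with O(5R)SK on each day, by 0.34, 0.22 and 0.25 on the log2 scale (mean 0.27, SE 0.079, 95% interval 0.062 to 0.48). Elobl was lower on each day, by -0.38, -0.47 and -0.21 (mean -0.35, SE 0.090, -0.59 to -0.11), and so was Serpinb1a, by -0.35, -0.46 and -0.69 (mean -0.50, SE 0.10, -0.77 to -0.23). These 3 had unadjusted p-values of 0.0215, 0.0135 and 0.00533 in limma, and none passed over all genes (adjusted p = 0.469, 0.419 and 0.363). A difference of 1 sign on all 3 days was seen for 33.7% of tested genes, against these 3 of 6. The other probe sets did not share the order: that of Sptssb read -0.22 on day 5, and that of Serpinb1a was higher with O(5R)SK on days 3 and 7, by 0.52 and 0.36.

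Egfl6, Trh and Fxyd6 changed order between the days. Egfl6 was lower with O(5R)SK on day 3 (-0.95) and higher on days 5 and 7 (0.51 and 1.23), a mean of 0.26 (95% interval -0.87 to 1.39). Its mean was 0.87 without either day 3 array and -0.22 without either day 7 array. The O(5R)SK arrays of days 3 and 7 are those that stood somewhat apart. Trh read 0.07, -0.31 and 1.11 (mean 0.29, -0.47 to 1.05), which was 0.59 without either day 5 array and -0.12 without either day 7 array. Fxyd6 read 0.26, -0.19 and -0.35 (mean -0.10, -0.47 to 0.28), and 0.03 without either day 7 array. These intervals are wide, and the missed threshold does not show that the combinations act alike. limma called 0 of the 6 genes and 0% of all tested, where 1181 genes had an unadjusted p under 0.05. The trended, robust prior called 82 genes and the stricter filter 27, none of them among the 6.

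**Figure D4:**
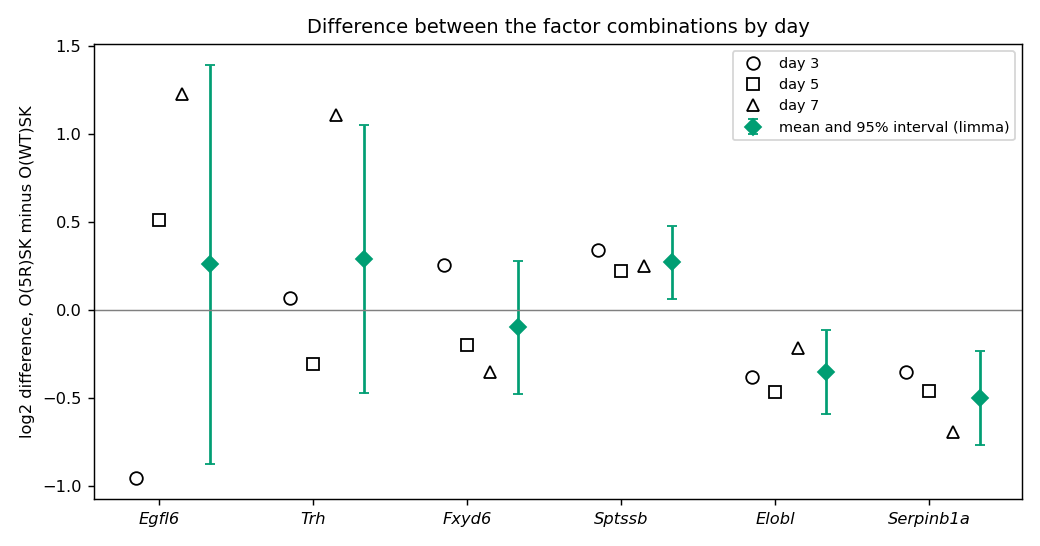
Log2 difference of O(5R)SK minus O(WT)SK on days 3, 5 and 7 (open symbols, 1 array per combination) and the mean with limma's 95% interval (green) for each gene. Sptssb lies above 0 and Elobl and Serpinb1a below 0 on all 3 days, while the days of Egfl6 span -0.95 to 1.23.

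The rise with O(5R)SK minus that with O(WT)SK equals the difference of the slopes over 4 days, since the days are evenly spaced. It is made of the same day 3 and day 7 values that chose the genes, so it is given without a test. For Egfl6 it was 2.18, measured from the O(5R)SK day 3 intensity of 15.2 that lies under the filter and among the off genes, so its size is not well fixed. With a pseudocount of 64 it was 1.57. Without the O(5R)SK day 3 or day 7 array no O(5R)SK rise can be taken, and the slope fit extends the remaining 2-day step to 4 days. The slope difference of Egfl6 obtained in this way was 1.17 without the day 3 array and 3.19 without the day 7 array. Trh gave 1.04, and its slope difference extended in the same way was -0.55 without the O(5R)SK day 7 array. Fxyd6 gave -0.61, Serpinb1a -0.34, Elobl 0.17 and Sptssb -0.089. Over all tested genes limma called 0% for this difference, 949 genes had an unadjusted p under 0.05, and the trended, robust prior called 2 genes.

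The other genes of the 6 pathways, listed by function, mostly stayed below the threshold between day 7 and day 3, where 6.52% of all tested genes were called higher and 3.67% lower. Among 21 other EGF-like and RGD matrix genes 18 were tested and 2 rose. These were Scube3 (log2 1.48, limma adjusted p = 0.0143), a secreted EGF-repeat protein, and the integrin gene Itgb5 (0.65, adjusted p = 0.0269). The fibulin gene Fbln1 fell (-1.08, adjusted p = 0.020). On day 3, Scube3 read 23.1 with O(WT)SK and 18.8 with O(5R)SK, both under the filter intensity. Scube3 exceeded the brightest off gene on no array, so the size of its rise is not well fixed. Npnt, which encodes nephronectin, the nearest relative of Egfl6, read 0.31 and Egfl7 -0.28, with neither past the threshold. The list had a median of -0.008 against 0.029 over all tested genes.

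Of 20 other genes of hormone processing and the thyroid axis 17 are on the array and 10 were tested. Pam, whose enzyme amidates peptide hormones such as thyrotropin-releasing hormone, rose (0.99, limma adjusted p = 0.0268), reading 569, 666 and 1030 on the O(WT)SK arrays and 425, 686 and 956 on those of O(5R)SK. Tshr, the thyrotropin receptor gene, rose as well (0.71, adjusted p = 0.0271), and none fell (list median 0.057). The hormone's receptor genes Trhr and Trhr2 lay below the filter, at 0.929 to 29.0 and 1.92 to 35.8. The convertase gene Pcsk1 was also below it, while Cpe, a carboxypeptidase that trims the cut peptides, was bright and read -0.21. Of the 10 neural and neuroendocrine markers 4 were tested and 0 were called. Their sum went from 13556 to 15957 with O(WT)SK and from 13747 to 14677 with O(5R)SK, most of it Stmn2, and the granule genes Chga, Chgb and Scg3 did not pass the filter, reading at most 20.6, 31.1 and 34.9.

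Among FXYD proteins and Na,K-ATPase subunits 11 of 14 others are on the array and 5 were tested. Atp1b1, a beta subunit of the pump, fell (-0.68, limma adjusted p = 0.0327) and none rose. Fxyd5, bright at 3115 to 3903, read 0.14, and Fxyd1 read -0.53 from values near the floor, with neither past the threshold. In sphingolipid synthesis 23 of 28 others were tested and 1 rose, the ceramide kinase gene Cerk (0.58, adjusted p = 0.0394 in limma), with a list median of 0.054. Of the large subunit genes, Sptlc1 read 0.18, Sptlc2 -0.32 and Sptlc3 0.026, the last from intensities of 6.49 to 50.3. Sptssa, the gene of the other small subunit, read 0.098, and limma called none of these.

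All 17 other elongin genes and partners were tested. Socs3, which encodes a cytokine signalling inhibitor that binds elongins, rose (0.94, limma adjusted p = 0.0361) and Eloc, the elongin C gene, fell (-0.61, adjusted p = 0.0375). Elob, the elongin B gene for whose likeness Elobl is named, read 12543 to 13593 on the 6 arrays and 0.080 between day 7 and day 3 (adjusted p = 0.618). The list median was -0.026.

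The clade B serpins had the highest median of the 6 lists. Of 24 other serpins and protease targets 21 are on the array and 11 were tested; 4 rose, 1 fell and the median was 0.55, against 0.029 over all tested genes, of which 6.52% were called higher and 3.67% lower. Serpinb6c rose by 2.31 (SE 0.143, limma adjusted p = 0.00787), Serpinb6b by 1.85 (SE 0.107, adjusted p = 0.00768), Serpinb9, an inhibitor of granzyme B, by 0.81 (adjusted p = 0.019) and Serpinb9b by 0.69 (adjusted p = 0.038). Serpinb2, the plasminogen activator inhibitor 2 gene, fell by 1.56 on the log2 scale (adjusted p = 0.0177). Serpinb1b, the close copy of Serpinb1a, read 1.08 without passing (adjusted p = 0.0752), and the bright Serpinb6a read -0.006. These serpins are a multigene family, so how far their probe sets see each other's transcripts is uncertain. Of the targets, Elane read 22.6 to 62.6, Prtn3 1.97 to 17.9 and Ctsg 2.85 to 28.4, and the sum of 10 neutrophil markers lay between 179 and 250 on all arrays. Calls of day 7 against day 3 rest on all 4 arrays of those days: without any one of them limma called 0 genes.

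**Figure D5:**
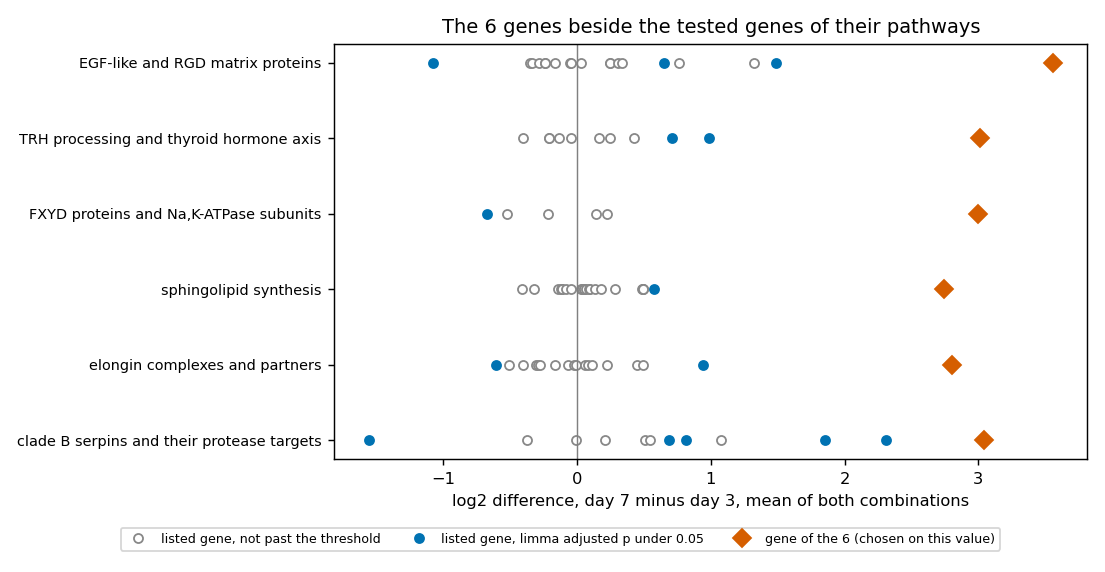
Log2 difference of day 7 minus day 3, averaged over both combinations, for the tested genes of the 6 pathway lists, with filled blue points for genes past an adjusted p of 0.05 in limma, open points for the others and orange diamonds for the 6 genes, which were chosen on this value. Serpinb6c at 2.31 and Serpinb6b at 1.85 are the listed genes nearest to a diamond, and most others lie near 0. The day 3 values of Serpinb6c lay under the filter intensity.

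The tested genes with profiles most like those of the 6 were sought by the root mean square difference of log2 values centred on their own mean over the 6 arrays. This measure is not scaled, so it favours genes with as large a rise. The 6 were chosen on that rise, so the neighbours follow in part from the choice. The 6 themselves and genes with predicted or clone-style names were left out of the search, so nearest below means nearest among the rest. Scara5, a ferritin receptor gene, was nearest to Serpinb1a (difference 0.13, r = 0.998) and among the 3 nearest to Fxyd6 and Elobl. Nearest to Fxyd6 was Srgn, which encodes the granule proteoglycan serglycin (0.19, r = 0.994). Nearest to Sptssb was Irak3, an inhibitor of Toll-like receptor signalling (0.13, r = 0.994), followed by the calcium channel subunit gene Cacna2d2 (0.17) and the ribonuclease gene Rnase1 (0.24). Elobl was closest to Fmod, the matrix proteoglycan fibromodulin (0.17, r = 0.991), and to Penk, the enkephalin precursor gene (0.25, r = 0.992). Trh was closest to the adhesion gene Mpzl2 (0.32, r = 0.969), Lbp (0.35) and Irak3 (0.37). Egfl6 had the least close neighbours, the aldo-keto reductase gene Akr1c14 (0.43, r = 0.960), Mpzl2 (0.44) and Cd3g (0.57), whose own O(5R)SK day 3 value was 1.26. Among the 6, Fxyd6 and Serpinb1a were the closest pair (0.23) and Egfl6 and Elobl the furthest apart (0.73). With 6 points that share the day course, high r is common, and these values are a description only.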

How the data were processed

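Biotinylated cRNA was made from Trizol-extracted RNA and put on the arrays, per the labels' protocols. The authors deposited a linear intensity for each probe set on each array. The submitters' processing notes name affy. Not given in the sources used here are its version, the summary method, background correction and genome build. The 2% trimmed mean is 500 on every array, so the arrays had been scaled. The number of arrays limits the precision.

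Of 45101 probe sets 64 are controls and were left out, 34945 name 1 gene, 932 several and 9160 none; 34741 of the 34945 were found in RefSeq, which changed 0 symbols. The platform annotation can be old. For 9010 genes with several probe sets the one with the highest mean was used. The deposited values were taken as log2(intensity + 16), and 12629 genes above the 40th percentile were tested with limma 3.58.1 (R 4.3.3): factor combination and day (3 levels) as terms, with 4 coefficients, 2 residual degrees of freedom and a prior of 2.6, and, for slopes, factor combination by day as a number. P-values were Benjamini-Hochberg adjusted over all genes, with a threshold of 0.05. The fit with day as levels was tested on simulated data for day 7 against day 3. The alternatives were pseudocounts of 1 and 64, no filter, a filter at the 60th percentile, quantile normalization, a common median, the mean of probe sets, a trended, robust prior, and each array left out.

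The 6 genes and the lists were chosen with earlier results of these data known. Other genes were named if a list member passed, as close relatives of the 6, as the 3 nearest profiles, or as neighbours in rank. Further genes named with values (Trhr, Trhr2, Pcsk1, Cpe, Sptlc1, Sptlc2, Sptlc3, Elane, Prtn3, Ctsg, the markers and Apoa2) were chosen after their values were seen. There were 0 unused columns. Figures used Python 3.11.15 and matplotlib 3.10.9.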

Additional observations from a re-analysis of the deposited data

How the results depend on the processing

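Across 14 alternatives none of the 6 genes passed the threshold for the factor difference or the day 5 contrast. All 6 rises kept their sign, which follows from the choice of the genes and is no support for the rises. Signs held throughout for the factor difference of Sptssb, Elobl and Serpinb1a, the slope difference of Egfl6 and the day 5 contrast of Fxyd6, Elobl and Serpinb1a. The filters and the trended prior leave every estimate as it is, so these settings could not change a sign. Leaving out either array of a day gives the same factor difference. With 1 array left out, ranges that crossed 0 were, for the factor difference, -0.22 to 0.87 (Egfl6), -0.12 to 0.59 (Trh) and -0.27 to 0.031 (Fxyd6). For the day 5 contrast they were -0.14 to 0.77 (Egfl6) and -0.80 to 0.10 (Trh). For the slopes they were -0.55 to 2.63 (Trh), -1.49 to 0.27 (Fxyd6), -0.56 to 0.38 (Sptssb), -1.07 to 1.40 (Elobl) and -0.76 to 0.076 (Serpinb1a). A slope with a day 3 or day 7 array left out extends a 2-day step to 4 days, so these slope ranges do not hold re-measured rises. The mean of probe sets turned the day 5 contrast of Sptssb to -0.12 and its slope difference to 0.080, and gave rises of 2.22 for Sptssb and 2.34 for Serpinb1a. It also shrank the factor difference of Serpinb1a from -0.50 to -0.21 and that of Sptssb from 0.27 to 0.18. limma called 0 genes for the factor difference, and 2 with a pseudocount of 64, 27 with the stricter filter and 82 with the trended prior; that prior called 2 for the slopes and 5 for day 5. For day 7 against day 3 it called 1288 genes, 64% of them higher, and 1971 with a pseudocount of 64, 2204 with the stricter filter, 2844 with the trended prior, 0 without the filter and 0 to 1071 with 1 array left out; the higher share was 49.4% with a common median and 55.9% after quantile normalization. A common median moved the median of all genes between day 7 and day 3 from 0.029 to -0.071, and that of the slope differences from -0.013 to -0.14. The cause of these changes was not tested. No paired analysis was possible because each combination and day had 1 array, with no replicate numbers to pair beyond the day, which is already a term of the fit for the factor difference.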
